A study of Sus scrofa with 11 samples.

Results

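Genes of T lymphocytes and natural killer (NK) cells were measured in healing skin wounds of a diabetic and a non-diabetic Yucatan minipig. The set was a list of 33 gene symbols, and a row of the deposited expression table was a member when its gene name was on the list. Of the 33 symbols, 31 were found and 2 were not (ZAP70 and TRAT1). GZMA was carried by 2 rows, with the gene identifiers 100526762 and 100233183, so the set held 32 of the 30376 genes in the table. Of these, 23 had enough signal to be tested, with at least 0.5 FPKM (reads scaled for the length of the gene and the size of the library) in at least 4 wounds, and 9 lay under that filter: CD7, CD8A, CD28, CTLA4, TBX21, FOXP3, EOMES, IFNG and KLRD1.

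Each group came from 1 female animal. The diabetic group was 7 full-thickness wounds of a minipig made diabetic at 6 months of age with streptozotocin, a toxin of the insulin-producing beta cells, and then given daily insulin until 1 week before wounding. The non-diabetic group was 4 wounds of a minipig without diabetes, whose age is not given in the sources used here. All 11 wounds were made with a 2 cm biopsy punch and collected on day 10 as whole pieces of tissue for polyA RNA sequencing, without sorting of cells. Because all wounds of a group shared an animal, diabetes and the animal cannot be told apart, and every p-value below measures the spread between wounds.

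T cells recognise peptides through a receptor whose signal is carried into the cell by the CD3 chains and the zeta chain CD247, and the co-receptors CD4 and CD8 divide them broadly into helper and cytotoxic cells. Cytotoxic T cells and NK cells kill by releasing granules that hold perforin, which opens the membrane of the target cell, and granzymes, the proteases that follow it. In healing skin, T cells enter after the neutrophils and monocytes and take part in the passage from inflammation to tissue formation.

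Reads on genes ranged from 28314785 to 40168372 in diabetic and from 32961018 to 36872400 in non-diabetic wounds, and 1 read on a gene of 2 kb was worth 0.0112 to 0.0194 FPKM. Keratinocyte transcripts were scarce in 2 wounds: the summed FPKM of 9 keratinocyte markers was 49.5 in diabetic replicate 4 and 294 in non-diabetic replicate 1, against 1685 to 6850 in the other 9 wounds. Transcripts of the CD3 chains were present in every wound, and their lowest values still rested on 22 reads (CD3D), 33 reads (CD3G) and 132 reads (CD3E). In whole tissue, fewer cells of a type and less RNA per cell cannot be told apart.

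No member passed the test between diabetic and non-diabetic wounds: 0 of 23 were called by limma (adjusted p below 0.05 over all 13956 genes tested and a log2 fold change beyond 0.5 in either direction), beside 3.0% of all genes tested (1.35% higher and 1.66% lower in diabetic wounds). At an unadjusted p below 0.05, limma gave 5 of 23 members, beside 18.4% of all genes: CD247, CD4 and KLRB1 had higher means (9.01% of all genes) and GZMB and GZMH lower means (9.39%) in diabetic wounds. KLRB1 passed the filter through diabetic wounds alone, as its highest non-diabetic value was 0.357 FPKM, so its place among these genes is not independent of the filter. An exact two-sided permutation test of each gene gave a p below 0.05 for 3 of the 23 members (CD247, GZMB and GZMH), beside 18.1% of the genes tested, and for FOXP3 among the 9 under the filter, beside 11.8% of such genes. A limma-voom test on the reads recovered from the FPKM values tested 29 members and called 0, beside 2.89% of all genes, with 5 of 29 members at an unadjusted p below 0.05, beside 17.9% of all genes. The log2 fold change of diabetic over non-diabetic wounds was positive for 15 and negative for 8 of the 23 members, with a median of 0.15, while the median of all genes was 0.01 and 52.3% were positive. In none of the 32 members were the 2 groups of wounds fully separated, beside 5.65% of the genes tested and 2.8% of the genes under the filter. The members did not lie on 1 side: the receptor complex had small positive values throughout, and the granzymes GZMB and GZMH had the most negative ones.

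**Figure D1:**
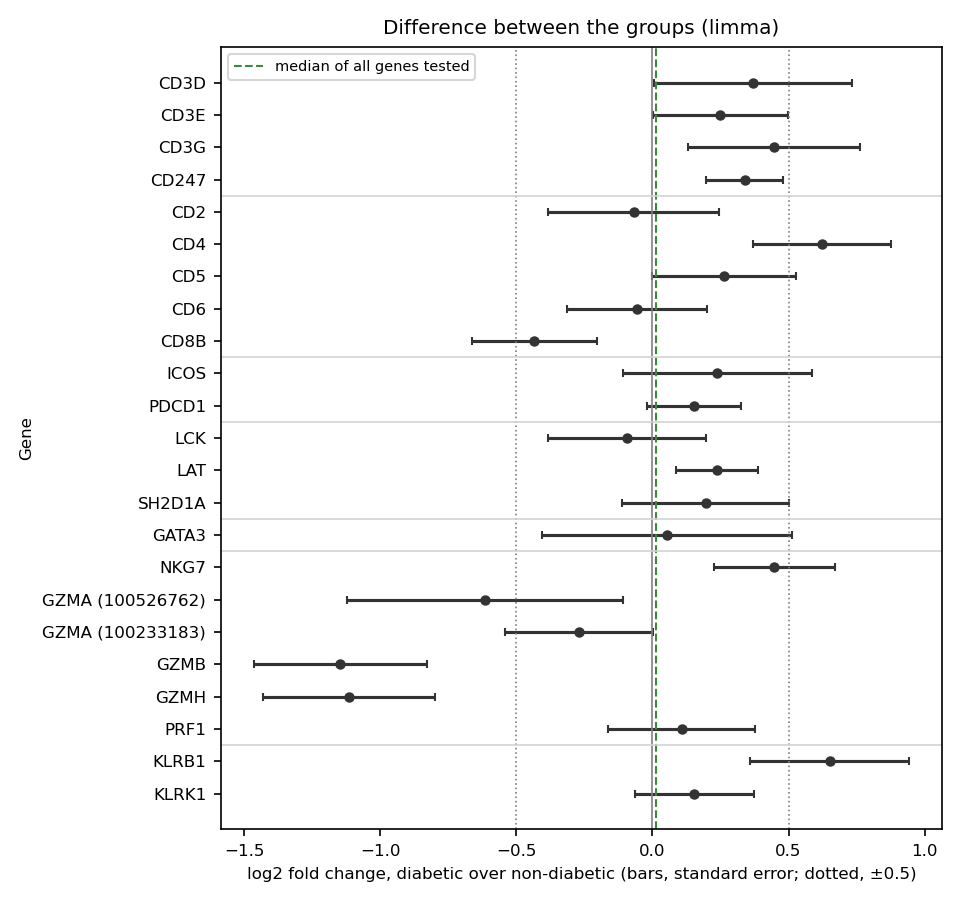
The log2 fold change of each of the 23 tested members, diabetic over non-diabetic, on the log2(FPKM + 0.5) scale, with bars for the limma standard error (7 and 4 wounds). Dotted lines mark a change of 0.5 in either direction, the dashed line marks the median of all genes tested (0.01), and GZMB (-1.15) and GZMH (-1.11) lie farthest from it.

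The promoter windows of 4 members are shown because these members carry the results below: GZMB and GZMH had the most negative fold changes of the set, and CD3E and CD2 varied together across the diabetic wounds. Each window holds the 250 bases before the annotated start of the gene, 5′ to 3′ on the strand of the gene, from the RefSeq genome Sscrofa11.1. The windows are chr7:74705249-74705498 for GZMB, chr7:74723550-74723799 for GZMH and chr9:45619480-45619729 for CD3E, all on the plus strand, and chr4:103976972-103977221 on the minus strand for CD2. Capitals mark matches on either strand to any of 5 motifs searched, none of which contains another. RUNX factors, which direct T cell development, were searched as TGTGGT and ETS factors, common in blood cells, as AGGAAG. Factors of the T-box family, such as TBX21 and EOMES, were searched as AGGTGT. The zinc finger family of GATA3 was searched as AGATAA. For the core promoter element that places the start of transcription, the letters were TATAAA.
GZMB: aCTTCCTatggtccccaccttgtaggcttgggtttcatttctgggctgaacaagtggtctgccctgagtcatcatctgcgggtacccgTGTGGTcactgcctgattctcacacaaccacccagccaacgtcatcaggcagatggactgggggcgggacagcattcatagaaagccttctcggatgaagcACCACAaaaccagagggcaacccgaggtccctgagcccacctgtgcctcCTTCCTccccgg
GZMH: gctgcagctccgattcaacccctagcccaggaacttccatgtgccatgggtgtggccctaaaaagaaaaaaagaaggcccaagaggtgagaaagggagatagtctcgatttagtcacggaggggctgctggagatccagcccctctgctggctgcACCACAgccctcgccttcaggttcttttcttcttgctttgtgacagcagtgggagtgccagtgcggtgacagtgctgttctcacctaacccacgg
CD3E: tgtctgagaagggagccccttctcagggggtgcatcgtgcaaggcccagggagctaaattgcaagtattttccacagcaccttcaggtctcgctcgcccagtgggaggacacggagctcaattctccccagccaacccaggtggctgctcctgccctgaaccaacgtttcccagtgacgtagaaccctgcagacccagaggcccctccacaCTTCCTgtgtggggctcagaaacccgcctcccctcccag
CD2: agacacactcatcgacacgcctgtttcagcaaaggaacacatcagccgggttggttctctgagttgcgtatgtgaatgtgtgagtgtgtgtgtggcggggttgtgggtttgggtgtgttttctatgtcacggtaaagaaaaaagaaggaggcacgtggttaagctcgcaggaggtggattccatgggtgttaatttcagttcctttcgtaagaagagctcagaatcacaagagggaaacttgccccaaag

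In these windows, GZMB held 2 RUNX and 2 ETS matches, GZMH held 1 RUNX match, CD3E held 1 ETS match and CD2 held none of the 5. Over the windows of all 32 members, the RUNX motif was found in 9 (14% of 19559 protein-coding promoters of the same length), the ETS motif in 13 (25%), the TATA box in 5 (9.77%), the GATA motif in 4 (8.08%) and the T-box motif in 4 (10.3%). The other members with the RUNX motif were both GZMA rows, NKG7, CD4, CD6, CD7 and PDCD1, so it was not limited to granule genes, and PRF1 lacked it. A match gives the letters of the window and says nothing of binding in these wounds.

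The 4 chains of the T cell receptor complex all had higher means in diabetic wounds, with log2 fold changes from 0.25 to 0.45 and a median of 0.35, and none was called. CD3E, a signalling chain of the complex and the most abundant of the 4, ranged from 4.08 to 11.5 FPKM with a median of 5.14 in the 7 diabetic wounds, and was 3.91, 3.90, 4.76 and 6.63 in the 4 non-diabetic wounds. Diabetic replicate 2 was the highest, and the other diabetic wounds lay within or close to the non-diabetic range. Its log2 fold change was 0.25 with a standard error of 0.25 (limma adjusted p = 0.653).

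CD247, the zeta chain, had the narrowest spread of the 4. It ranged from 2.16 to 3.94 FPKM with a median of 2.52 in diabetic wounds, and was 1.62, 2.27, 1.97 and 2.18 in non-diabetic wounds. Only the lowest diabetic wound lay below the highest non-diabetic ones. For CD247 the log2 fold change was 0.34 with a standard error of 0.14 (limma adjusted p = 0.227), and the exact permutation test over all 330 splits of the wounds into 7 and 4 gave p = 0.0273, the smallest possible being 0.00303. With values rescaled to TPM, and without non-diabetic replicate 1 or replicate 3, this p was above 0.05.

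CD3D, the delta chain, ranged from 1.91 to 8.23 FPKM with a median of 2.88 in diabetic wounds, beside 1.01, 2.11, 3.71 and 2.94 in non-diabetic wounds. CD3G, the gamma chain, ranged from 1.16 to 5.35 FPKM with a median of 2.63, beside 0.837, 1.58, 3.15 and 1.94. Both were lowest in non-diabetic replicate 1, the wound with few keratinocyte transcripts, and their log2 fold changes of 0.37 and 0.45 were 0.08 and 0.19 without the 2 wounds poor in keratinocyte transcripts. Without diabetic replicate 2 they were 0.15 and 0.29, and that of CD3E was 0.09. The 3 CD3 genes lie side by side on chromosome 9, where 6502 bases separate CD3E from CD3D and 1089 bases separate CD3D from CD3G.

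Among the co-receptors and surface antigens of T cells, 5 of 7 could be tested and none was called. CD4, the co-receptor of helper T cells that is also made by macrophages, ranged from 3.00 to 9.27 FPKM with a median of 4.89 in diabetic wounds, and was 3.48, 2.58, 3.91 and 3.21 in non-diabetic wounds. In 5 of 7 diabetic wounds CD4 lay above every non-diabetic wound. For CD4 the log2 fold change of 0.62 had a standard error of 0.25 and did not pass (limma adjusted p = 0.214, exact permutation p = 0.0515).

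The highest wound differed between CD4 and CD3E, although diabetic replicates 2 and 4 were among the 3 highest for both. CD4 was highest in diabetic replicates 7 (9.27 FPKM) and 4 (7.63 FPKM), where CD3E was 5.13 and 6.39 FPKM, and these 2 wounds also held the highest levels of CSF1R, the growth factor receptor of macrophages, at 76.1 and 88.9 FPKM. The summed FPKM of the 10 macrophage markers ranged from 781 to 1745 in diabetic and from 575 to 1027 in non-diabetic wounds. None of these markers was at 0 in any wound, and the correlation of CD4 with CSF1R is given with the gene pairs below.

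CD8B, the beta chain of the co-receptor of cytotoxic T cells, had the opposite sign, with 0.192 to 0.830 FPKM and a median of 0.348 in diabetic wounds, and 0.640, 0.417, 1.36 and 0.681 in non-diabetic wounds. Its values rested on 8 to 75 reads a wound, and the log2 fold change of -0.43 had a standard error of 0.23 (limma adjusted p = 0.345). CD8A, the alpha chain, which in pigs is also carried by many helper T cells and NK cells, lay under the filter at 0.259 to 0.764 FPKM in diabetic and 0.193 to 0.405 FPKM in non-diabetic wounds.

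CD2, an adhesion receptor of T and NK cells, averaged 3.49 ± 2.15 FPKM (SD) over the 7 diabetic wounds and 3.48 ± 1.21 FPKM over the 4 non-diabetic ones. The scavenger-receptor-like proteins CD5 and CD6, which dampen receptor signalling, averaged 2.74 ± 1.14 and 0.894 ± 0.550 FPKM (SD) over the diabetic wounds, and 2.12 ± 0.649 and 0.885 ± 0.247 FPKM over the non-diabetic ones. The log2 fold changes of CD2, CD5 and CD6 were -0.07, 0.26 and -0.06 (limma adjusted p = 0.939, 0.657 and 0.937), and that of CD5 lay between 0.11 and 0.39 when single wounds were left out. CD7, another T and NK cell antigen, did not exceed 0.347 FPKM in any wound.

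Of the co-stimulatory and checkpoint receptors, ICOS and PDCD1 were tested. ICOS, a receptor of activated and follicular helper T cells, ranged from 0.451 to 4.11 FPKM with a median of 1.64 in diabetic wounds, and was 0.976, 0.866, 1.81 and 1.67 in non-diabetic wounds (log2 fold change 0.24, limma adjusted p = 0.776). Without diabetic replicate 2 the log2 fold change of ICOS was 0.05, and over all single wounds left out it lay between that and 0.43. PDCD1, the inhibitory receptor PD-1, was steadier, at 0.604 to 1.71 FPKM in diabetic and 0.637 to 1.15 FPKM in non-diabetic wounds, with a limma adjusted p of 0.699 for the log2 fold change of 0.15. CD28, the main co-stimulatory receptor of T cells, and its inhibitory relative CTLA4 lay under the filter, at no more than 0.887 and 0.680 FPKM. CD28 was listed at 0 in 1 diabetic and 1 non-diabetic wound, and CTLA4 in 2 diabetic and 1 non-diabetic wound. Both genes and ICOS lie in a row on chromosome 15, and all 3 were highest in either diabetic replicate 2 or non-diabetic replicate 3.

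The proximal signalling proteins did not pass the test either. LCK, the kinase that starts receptor signalling, ranged from 0.534 to 2.91 FPKM with a median of 0.907 in diabetic wounds, and was 0.887, 1.07, 1.98 and 1.07 in non-diabetic wounds (log2 fold change -0.09, limma adjusted p = 0.904). LAT, the membrane adaptor below it, was more even, at 3.55 to 6.57 FPKM in diabetic and 3.47 to 4.43 FPKM in non-diabetic wounds, with a limma adjusted p of 0.441 for the log2 fold change of 0.24. LAT was highest in diabetic replicate 4, where LCK was at its diabetic median, and LAT is also made by mast cells and platelets. SH2D1A, the adaptor SAP, rested on no more than 14 reads a wound (log2 fold change 0.20, limma adjusted p = 0.796).

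The symbols ZAP70 and TRAT1 named no row, but 2 rows with a LOC identifier as their name carried these descriptions. The row described as the kinase ZAP-70 (LOC100739325, chromosome 3) ranged from 0.919 to 3.31 FPKM in diabetic and from 0.688 to 1.81 FPKM in non-diabetic wounds, with a limma adjusted p of 0.499 for the log2 fold change of 0.39. The row described as the receptor-associated adaptor TRAT1 (LOC100620198, chromosome 13) lay under the filter at 0.0833 to 0.474 FPKM. Both were highest in diabetic replicate 2, and neither was counted among the members.

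Of the transcription factors that set the fates of T and NK cells, GATA3 alone passed the filter. GATA3, the factor of type 2 helper T cells and also of keratinocytes, ranged from 0.951 to 5.31 FPKM with a median of 3.01 in diabetic wounds, and was 0.709, 4.07, 2.98 and 3.05 in non-diabetic wounds (log2 fold change 0.05, limma adjusted p = 0.968). Its lowest values in each group were those of the 2 wounds poor in keratinocyte transcripts, diabetic replicate 4 at 0.951 FPKM and non-diabetic replicate 1 at 0.709 FPKM. Without them the log2 fold change was -0.19.

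FOXP3, the factor of regulatory T cells, was low in both groups, at 0.0739 to 0.300 FPKM in diabetic wounds and at 0.407, 0.189, 0.329 and 0.214 FPKM in non-diabetic wounds. These values rested on 17 to 60 reads a wound. The exact permutation test gave p = 0.0455 with the lower mean in diabetic wounds, beside 11.8% of the genes under the filter at such a p, and the p of FOXP3 was above 0.05 with quantile normalization and when diabetic replicate 1, 2, 3, 5, 6 or 7 or non-diabetic replicate 1 or 3 was left out. TBX21 and EOMES, the factors of type 1 helper and of cytotoxic and NK cells, reached at most 0.713 and 0.414 FPKM.

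**Figure D2:**
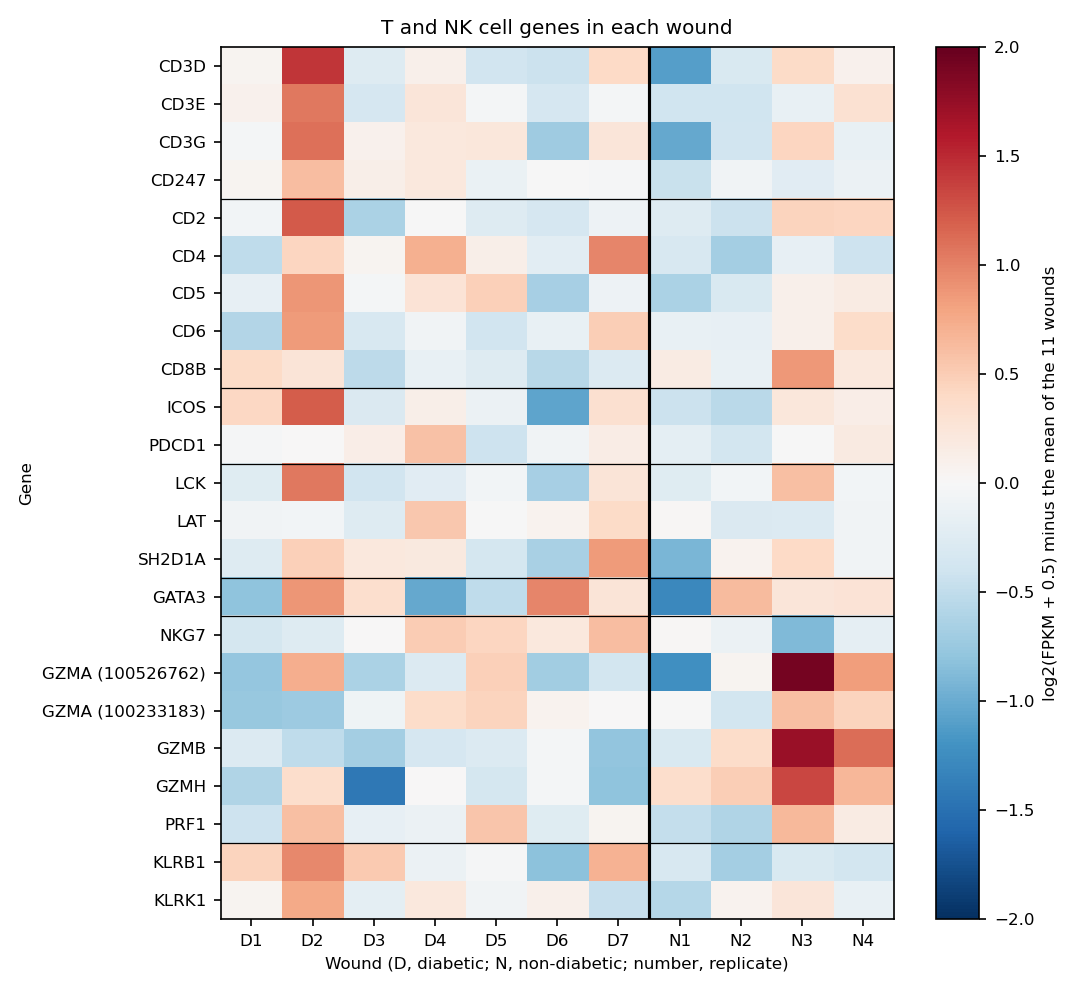
Each of the 23 tested members in each of the 11 wounds, as log2(FPKM + 0.5) minus the mean of the gene over the 11 wounds, with lines between the roles in the order of the text and a bold line between diabetic (D) and non-diabetic (N) wounds. Diabetic replicate 2 is red for most genes of the receptor complex and surface antigens, and GZMB and GZMH are mostly blue in the diabetic and mostly red in the non-diabetic wounds.

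The fold changes of the granule genes differed in sign. GZMB and GZMH, 2 granzymes of cytotoxic T and NK cells, had the lowest fold changes of the set, while the membrane protein NKG7 and perforin (PRF1) did not share their sign. GZMB ranged from 0.307 to 0.861 FPKM with a median of 0.606 in the 7 diabetic wounds, and was 0.633, 1.32, 4.16 and 2.56 in the 4 non-diabetic wounds. Non-diabetic replicates 2, 3 and 4 lay above every diabetic wound, and replicate 1 lay inside the diabetic range. With GZMB at a log2 fold change of -1.15, limma gave a standard error of 0.32 and an adjusted p of 0.0740, above the threshold (exact permutation p = 0.0121).

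GZMH ranged from 0.128 to 1.67 FPKM with a median of 0.833 in diabetic wounds, and was 1.66, 1.87, 3.79 and 2.17 in non-diabetic wounds. The groups touched at a single point, where diabetic replicate 2 lay just above non-diabetic replicate 1. The log2 fold change was -1.11 with a standard error of 0.31 (limma adjusted p = 0.0802, exact permutation p = 0.0121). GZMB was called without non-diabetic replicate 1 (log2 fold change -1.49, limma adjusted p = 0.0211) and without the 2 wounds poor in keratinocyte transcripts (-1.51, limma adjusted p = 0.0293), and GZMH without diabetic replicate 2 (-1.24, limma adjusted p = 0.0458). Both were called with library weights, and over all alternatives the limma adjusted p ranged from 0.0150 to 0.545 for GZMB and from 0.0205 to 0.634 for GZMH.

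GZMB and GZMH rested on few reads, with 7 to 21 and 5 to 74 in diabetic wounds and 16 to 128 and 47 to 131 in non-diabetic wounds. They lie 15018 bases apart on chromosome 7, their exons share an identical stretch of 68 bases, and 12.2% of the 25-base words of GZMB occur in GZMH. Reads from such stretches could be assigned to either gene, so the split between them is uncertain, and how reads with several matches were counted is not given in the sources used here.

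The 2 GZMA rows, neighbours on chromosome 16, shared no identical stretch longer than 18 bases. Row 100526762 had 0.245 to 1.6 FPKM in diabetic wounds and 0.0437, 0.826, 4.28 and 1.77 in non-diabetic wounds, and its log2 fold change of -0.62 had a standard error of 0.51 (limma adjusted p = 0.572). It was -1.16 without non-diabetic replicate 1 and -0.11 without non-diabetic replicate 3. Row 100233183 had 0.254 to 1.22 and 0.486 to 1.44 FPKM in the same groups (log2 fold change -0.27, limma adjusted p = 0.657). Non-diabetic replicate 3 held the highest value of both GZMA rows, of GZMB, of GZMH, of PRF1 and of CD8B.

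PRF1, which encodes perforin, ranged from 0.376 to 1.27 FPKM with a median of 0.569 in diabetic wounds, and was 0.338, 0.264, 1.32 and 0.798 in non-diabetic wounds (log2 fold change 0.11, limma adjusted p = 0.880). NKG7, a granule membrane protein needed for granule release, was the most abundant member, with 13.3 to 26.5 FPKM and a median of 19.9 in diabetic wounds, and 17.5, 15.9, 9.13 and 15.2 in the others. For NKG7 the log2 fold change of 0.45 had a standard error of 0.22 (limma adjusted p = 0.317), and it was 0.25 without non-diabetic replicate 3. NKG7 was lowest in non-diabetic replicate 3, the wound with the most granzyme transcripts. That wound was also the lowest in the macrophage gene CSF1R, and diabetic replicates 7 and 4 were the 2 highest for both genes. Which cells made NKG7 was not tested. IFNG, the interferon of T and NK cells, never exceeded 5 reads in a wound.

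The granule genes were also set against CD3E in the same wound. This ratio was chosen after the values were seen and is given as a description. GZMH amounted to 0.0314 to 0.282 FPKM per FPKM of CD3E in diabetic wounds with a median of 0.145, and to 0.328 to 0.798 in non-diabetic wounds, so that the groups did not overlap, as was the case in this direction for 1.76% of all genes tested. GZMB amounted to 0.0417 to 0.211 in diabetic and 0.162 to 0.874 in non-diabetic wounds. Both GZMA rows overlapped widely, with 0.0432 to 0.246 and 0.0112 to 0.899 for row 100526762 and 0.0229 to 0.238 and 0.124 to 0.302 for row 100233183. PRF1 covered nearly the same span in both, with 0.0662 to 0.235 in diabetic and 0.0676 to 0.276 in non-diabetic wounds.

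**Figure D3:**
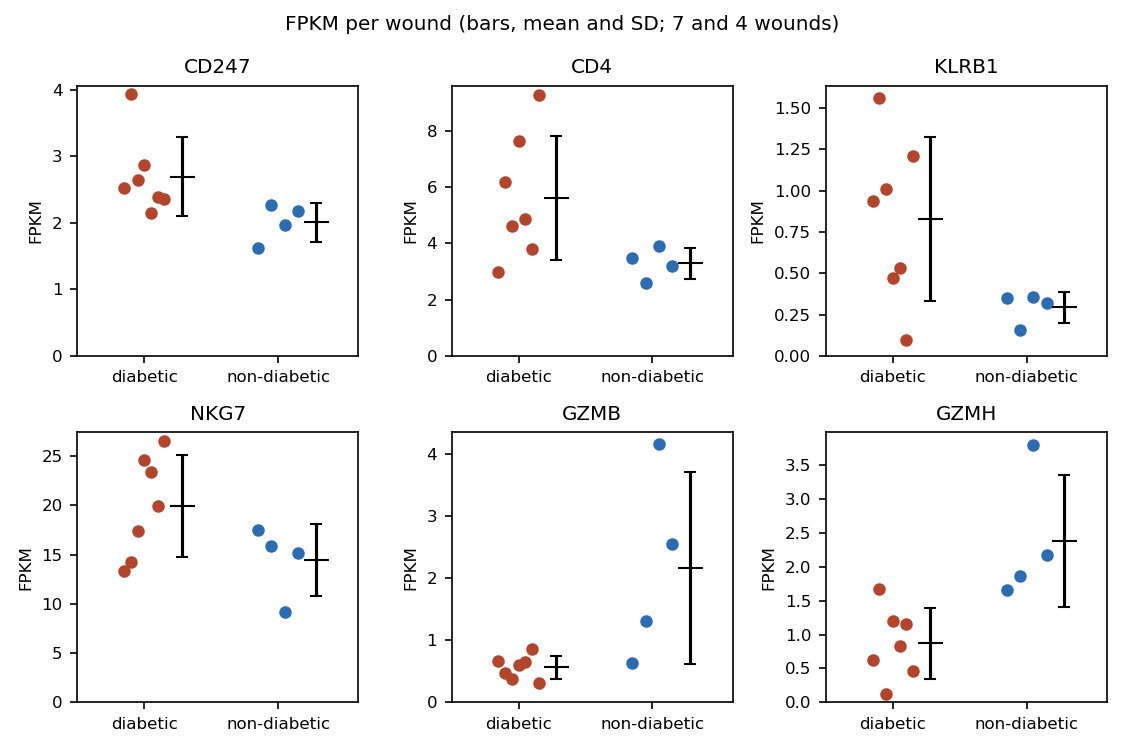
FPKM of 6 members in each diabetic (red, n = 7) and non-diabetic (blue, n = 4) wound, with the mean and SD beside the points. CD247, CD4, KLRB1 and NKG7 have higher means and GZMB and GZMH lower means in diabetic wounds, and in each panel at least 1 wound of a group lies within the range of the other.

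The NK receptors of the set belong to the killer cell lectin-like family. KLRB1, the receptor CD161, ranged from 0.0947 to 1.56 FPKM with a median of 0.940 in diabetic wounds, and was 0.348, 0.156, 0.357 and 0.319 in non-diabetic wounds. In 6 of 7 diabetic wounds it lay above every non-diabetic wound, and diabetic replicate 6, at 2 reads, lay below them all. For KLRB1 the log2 fold change of 0.65 had a standard error of 0.29 (limma adjusted p = 0.261, exact permutation p = 0.0727). No non-diabetic wound reached the filter level for KLRB1, which was tested through its diabetic values alone. KLRK1, the activating receptor NKG2D, had 0.424 to 1.64 and 0.358 to 1.00 FPKM in diabetic and non-diabetic wounds (log2 fold change 0.15, limma adjusted p = 0.767). KLRD1, the receptor chain CD94, lay under the filter, with 0.00588 to 0.267 FPKM in diabetic and 0 to 0.0241 FPKM in non-diabetic wounds. It rested on 1 to 62 reads in diabetic and at most 4 reads in non-diabetic wounds. In 6 of 7 diabetic wounds KLRD1 lay above every non-diabetic wound (exact permutation p = 0.0545). Limma-voom gave it a log2 fold change of 2.38 (adjusted p = 0.328). The paper, with its own test on read counts, names KLRD1 among the upregulated genes of its enriched NK cytotoxicity pathway.

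The level of the members varied widely between single wounds. Diabetic replicate 2 held the highest value of the 11 wounds for 11 of the 23 tested members, beside 10.8% of all genes tested, and was among the 3 highest wounds for 17. The summed FPKM of CD3D, CD3E, CD3G and CD247 was 29.1 in that wound, 9.53 to 14.9 in the other 6 diabetic wounds, and 7.38, 9.86, 13.6 and 13.7 in the non-diabetic wounds. Against the median of the other 6 diabetic wounds, the members in replicate 2 had a median ratio of 2.14, and 17 of 23 (73.9%) exceeded a ratio of 1.5, while the median ratio of all genes was 1.00 and 13.2% exceeded 1.5. This wound was singled out after its values were seen, so no test was made.

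The high level in diabetic replicate 2 did not extend to every member. GZMA row 100526762 (ratio 3.97), CD3D (3.24), LCK (3.24), CD6 (3.01), CD2 (2.97) and ICOS (2.76) had the highest ratios of the tested members, and GZMH and PRF1 stood at 2.30, whereas PDCD1 (0.957), LAT (0.928), GZMB (0.762), NKG7 (0.658) and GZMA row 100233183 (0.329) were below 1. The B cell gene MS4A1 (CD20) was also high there, at 0.800 FPKM against 0.0160 to 0.228 in the other diabetic wounds. All 9 B cell markers together summed to 15.9 FPKM, within the 10.4 to 19.2 of the diabetic wounds. PAX5 was listed at 0 in diabetic replicate 1 and MS4A1 in non-diabetic replicate 2. The plasma cell markers summed to 219 FPKM in this wound, within the 183 to 261 of the diabetic wounds, and the fibroblast markers to 14028 FPKM, the lowest of the 11 wounds. Their part in the level of the T cell genes was not tested.

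At the other end, non-diabetic replicate 1 was the lowest wound for 7 of the 23 members (beside 12.7% of all genes) and diabetic replicate 6 for 5 (beside 11.8%). Non-diabetic replicate 3 was the highest for 6 (beside 9.16%), which were CD8B and the 5 granule rows named above.

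**Figure D4:**
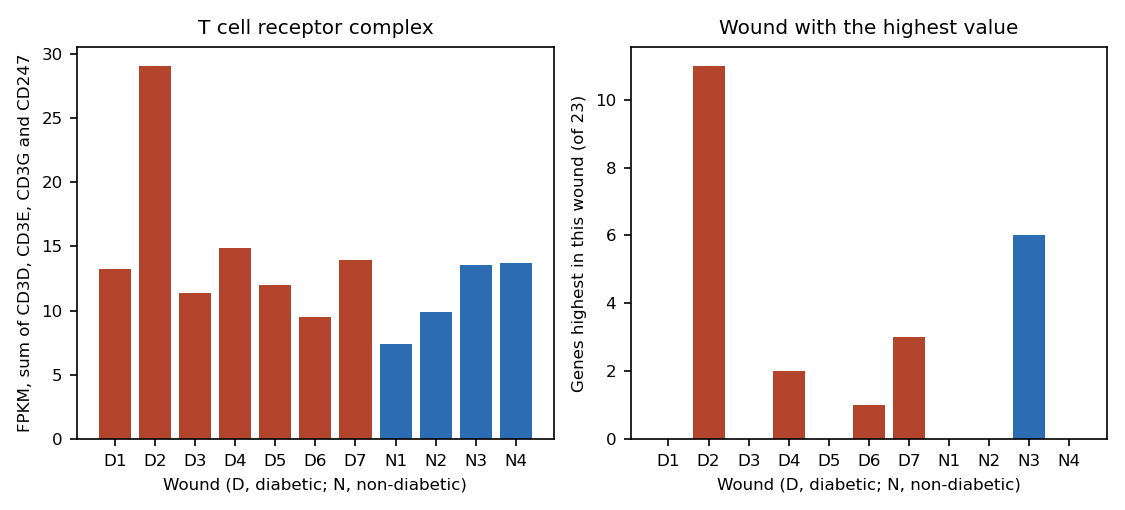
Left, the summed FPKM of CD3D, CD3E, CD3G and CD247 in each diabetic (D, red) and non-diabetic (N, blue) wound; right, the number of the 23 tested members whose highest value lay in that wound. Diabetic replicate 2 has the highest sum (29.1) and the most members (11), followed by non-diabetic replicate 3 with 6.

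Of 8 gene pairs examined across the 7 diabetic wounds, CD3E with CD2 was the pair that passed. Pearson's r was 0.974 (exact permutation p = 0.000794, Benjamini-Hochberg adjusted 0.00635) and Spearman's rho was 0.929 (exact permutation p = 0.00675, adjusted 0.0540). Without the 2 wounds farthest from the median of CD3E, r was 0.935. Without diabetic replicate 2 alone, r was 0.871 and its adjusted p of 0.0593 (exact permutation test) no longer passed.

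The pairs of CD3E with CD4 (r = 0.305, rho = 0.321), with GATA3 (r = 0.0684, rho = -0.464) and with NKG7 (r = -0.374, rho = -0.214) did not pass, with exact permutation p from 0.449 to 0.922 for r and from 0.302 to 0.662 for rho. CD3E with MS4A1 had r = 0.827 (rho = 0.357, exact permutation p = 0.0639 and 0.444), which turned to -0.644 without the 2 farthest wounds and rested on diabetic replicate 2, without which it was 0.0780. CD4 with CSF1R had r = 0.675 (rho = 0.714, exact permutation p = 0.0976 and 0.0881, adjusted 0.240 and 0.352), and r without the 2 farthest wounds was 0.294. GATA3 with the keratinocyte gene KRT5 had r = 0.577 (rho = 0.357, exact permutation p = 0.120 and 0.444), which turned to -0.295 without the 2 farthest wounds. PRF1 with GZMB had r = -0.188 (rho = -0.500, exact permutation p = 0.671 and 0.267). The 4 non-diabetic wounds were too few for a correlation.

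**Figure D5:**
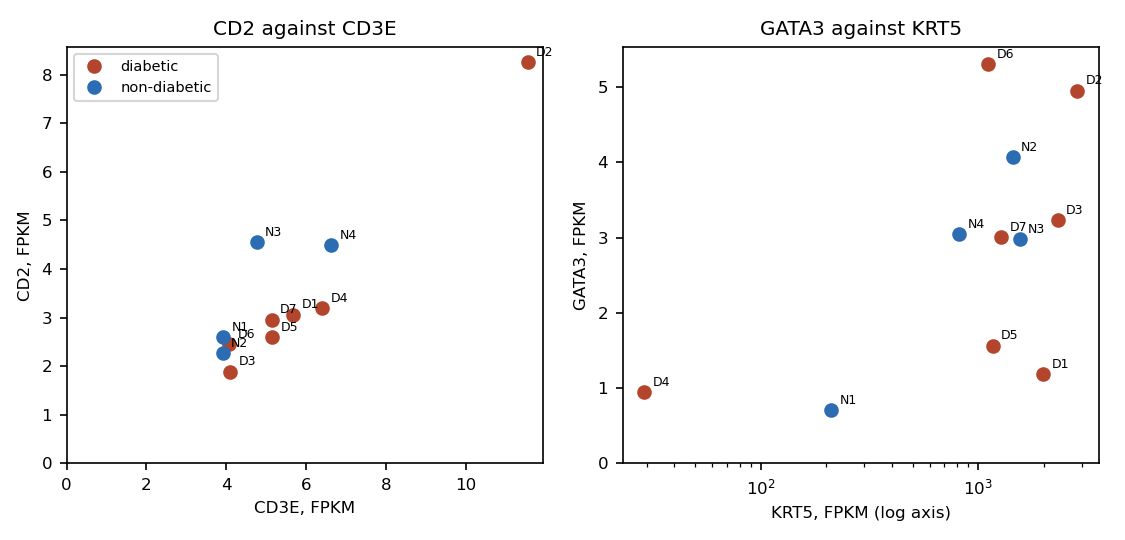
Left, CD2 against CD3E, and right, GATA3 against KRT5 (log axis), in FPKM for each diabetic (D, red) and non-diabetic (N, blue) wound. CD2 follows CD3E across the diabetic wounds (r = 0.974 on the log2 scale) with replicate 2 far above the rest, and the 2 wounds lowest in KRT5 are also the lowest in GATA3.

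A further list of 110 rows for T and NK cell genes outside the set, of which 78 were tested, also gave no call: limma called 0 of 78 (beside 3.0% of all genes), with 13 higher and 3 lower in diabetic wounds at an unadjusted p below 0.05, beside 9.01% and 9.39% of all genes. The log2 fold change was positive for 53 and negative for 25, beside 52.3% positive of all genes, with a median of 0.13. The smallest limma adjusted p was that of IL18R1, the receptor of interleukin-18, at 2.28 and 1.37 FPKM in diabetic and non-diabetic wounds (log2 fold change 0.57, adjusted p = 0.0508). IL12RB1, a chain of the interleukin-12 receptor, had a log2 fold change of 0.50 (limma adjusted p = 0.0972) and IL2RG, the chain common to several interleukin receptors, 0.45 (0.160). IL12RB1 passed the filter through diabetic wounds alone, as its highest non-diabetic value was 0.377 FPKM.

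Among the 19 cytotoxicity and NK rows, 11 were tested, with 7 positive and 4 negative log2 fold changes, and the 3 smallest p-values were those of CTSW, FCGR3A and GNLY. CTSW, a protease of cytotoxic cells, was 4.82 and 2.68 FPKM in diabetic and non-diabetic wounds (log2 fold change 0.75, limma adjusted p = 0.0712). FCGR3A, the Fc receptor CD16 of NK cells and macrophages, had a log2 fold change of 0.65 (limma adjusted p = 0.0924), and GNLY, the granule protein granulysin, was 2.90 and 5.41 FPKM (-0.94, limma adjusted p = 0.241). GZMK, another granzyme, had a log2 fold change of -0.14 (limma adjusted p = 0.909), and GZMM lay under the filter. Every diabetic wound lay above every non-diabetic wound for IKZF1 and BATF, transcription factors of lymphocytes (log2 fold change 0.36 and 0.42, limma adjusted p = 0.0795 and 0.0813), beside 2.69% of the genes tested, and for a low-level row described as the NK receptor KLRC1, beside 0.81% of the genes under the filter.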

How the data were processed

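PolyA RNA of 11 wounds was sequenced. Per the labels and the study's methods, the authors trimmed reads with fastp, aligned them to Sscrofa11.1 with HISAT2 (2.2.1), assembled transcripts with StringTie (2.2.3), counted reads per gene with featureCounts (2.0.6) and deposited 1 table of FPKM values. The FPKM formula and the settings for strand and multiple matches are not given in the sources used here. With gene lengths and 1 divisor per wound, 100% of the values came out as whole reads (tolerance 0.05 reads), and these served for depth and for limma-voom (at least 10 reads in at least 4 wounds).

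The values were tested as log2(FPKM + 0.5) with limma (3.58.1, R 4.3.3, empirical Bayes with trend) over 13956 genes with at least 0.5 FPKM in at least 4 wounds, with Benjamini-Hochberg adjustment over all of them. Fold changes on this scale understate the change of low genes. Single genes were tested by a two-sided exact permutation test over 330 splits, and pairs over 5040 orders of the 7 diabetic wounds (SciPy 1.17.1). On simulated data for this comparison (13888 genes, 50 changed per fold), limma recovered 88% of 2-fold and 74% of 0.5-fold changes. The simulated reads had 1 fixed spread for all genes and no differences in tissue between wounds. These shares therefore do not give the power of the test for the members. Reads are not independent molecules, so their numbers give counting error only.

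All members and all genes of the pairs are named. Of the other lists, genes were named by the smallest p in each role, by being called or by group separation, and values per FPKM of CD3E and the ratios of diabetic replicate 2 were chosen after the values were seen. Some genes of the other lists are not reported here. The members and lists were chosen with earlier results of these data known. All 32 members had the same coordinates in the RefSeq annotation of Sscrofa11.1. The alternatives tried were other pseudocounts, filters, scalings, weights, voom, a replicate block and leaving out wounds.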

Additional observations from a re-analysis of the deposited data

Results flagged for a closer look

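Of 66 groups of wounds examined, 11 held a wound far from the rest (the gap to its nearest neighbour was large against the range of the group), where chance gives about 5 in 100, and 10 of the 11 were in diabetic replicate 2. In that wound the receptor chains CD3D, CD3E, CD3G and CD247 stood at 8.23, 11.5, 5.35 and 3.94 FPKM, beside 3.78, 6.39, 2.71 and 2.87 FPKM in the next diabetic wound, and their sum at 29.1 beside 14.9 FPKM. CD2 stood at 8.25 beside 3.20 FPKM, and the kinase LCK at 2.91 beside 1.46 FPKM. CD8A (0.764 beside 0.429 FPKM), CD28 (0.887 beside 0.297 FPKM) and EOMES (0.414 beside 0.145 FPKM) stood apart at low levels. These genes share a wound and a library, so they are not separate observations. Among the non-diabetic wounds, LCK was far from the rest in replicate 3, at 1.98 FPKM beside 1.07 FPKM.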

How the results depend on the processing

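The number of members called was 0 under the other pseudocounts, filters and scalings, no trend, voom and the replicate block, 2 with library weights (GZMB and GZMH), 1 without the 2 wounds poor in keratinocyte transcripts (GZMB), and 0 to 1 when single wounds were left out (GZMH without diabetic replicate 2, GZMB without non-diabetic replicate 1). Calls of the further list were 0, but 2 with library weights (FCGR3A and ITGAL), 1 with no trend (IL18R1), and 0 to 1 without single wounds (IL18R1 without diabetic replicate 3). Members whose groups were separated numbered 1 with quantile normalization (GZMH), 2 without the 2 wounds poor in keratinocyte transcripts (GZMB and GZMH) and 0 to 2 without single wounds: GZMH without diabetic replicate 2, CD247 and KLRD1 without replicate 5, KLRB1 without replicate 6, and GZMB and GZMH without non-diabetic replicate 1. Members at an exact permutation p below 0.05 numbered 2 to 5 without single wounds, the 2 being GZMB and GZMH without non-diabetic replicate 3, and both kept such a p under every alternative of that test. Of the 8 pairs, 0 to 1 passed without single wounds, and 0 without diabetic replicate 2.

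Of 494 fold changes of single members under an alternative, 464 kept direction and side of the threshold, 5 newly passed (3 of GZMB and 2 of GZMH) and 25 of 7 genes changed sign. With the replicate block, CD2 was 0.0876 and GATA3 -0.11. GATA3 was -0.00340 with values rescaled to TPM and -0.0605 with library weights, and KLRK1 -0.0406 with library weights. Without the 2 wounds poor in keratinocyte transcripts, SH2D1A was -0.0862, GATA3 -0.19, PRF1 -0.00141 and KLRK1 -0.0269. Without single wounds the log2 fold change ranged from -0.28 to 0.0635 for CD2, -0.20 to 0.0513 for CD6, -0.28 to 0.0864 for LCK, -0.0666 to 0.37 for SH2D1A, -0.36 to 0.28 for GATA3, -0.0720 to 0.34 for PRF1 and -0.00128 to 0.27 for KLRK1. The r of CD3E and GATA3 ranged from -0.905 to 0.359, of CD3E and NKG7 from -0.490 to 0.174, of PRF1 and GZMB from -0.410 to 0.0171, and of CD3E and CD2 from 0.871 to 0.989. The cause of these changes was not tested. The stricter filter leaves out some low members, GZMB among them, which then have no value.

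Replicate numbers did not pair the wounds (r of same-numbered wounds -0.267, 0.215, 0.0678 and -0.483). With the number as a block, limma called 11 genes higher and 5 lower, against 188 and 231 without it, and no member under either. With library weights the calls were 406 and 416, without non-diabetic replicate 1 they were 106 and 75, without non-diabetic replicate 2, 3 or 4 they were 126 and 122, 104 and 95, and 119 and 107, and without the 2 wounds poor in keratinocyte transcripts 106 and 81. With values rescaled to TPM they were 179 and 346, and with voom 165 and 327. Low read numbers limit what can be seen of GZMB, SH2D1A, KLRB1 and most members under the filter, but not of CD8A, which had 51 to 315 reads a wound on a gene of 9234 bases.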

Other observations

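Among markers of other cell types, limma called 6 of 56 tested, all higher in diabetic wounds, beside 1.35% of all genes called higher. Limma-voom called 4 of them and not CD79B (adjusted p = 0.0769) or KRT15 (0.0641). They were the B cell genes FCRLA (log2 fold change 1.28, adjusted p = 0.00319) and CD79B (1.19, 0.0256), the plasma cell genes POU2AF1 (2.07, 0.00720) and MZB1 (1.99, 0.0117), the macrophage receptor MRC1 (0.73, 0.00585) and the keratin KRT15 (2.50, 0.0388). CD79B passed the filter of 0.5 FPKM through diabetic wounds alone, as its highest non-diabetic value was 0.413 FPKM. Its call is therefore not independent of the filter. The 7 neutrophil, 4 mast cell, 8 dendritic cell, 6 endothelial and 6 fibroblast marker rows gave 0 calls by limma and by voom, with 1 dendritic cell marker (TCF4) at an unadjusted limma p below 0.05.

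CCL19, a chemokine that draws T cells carrying its receptor CCR7, was the most abundant T cell chemokine of the further list, with group means of 86.1 FPKM (diabetic) and 68.0 FPKM (non-diabetic), a log2 fold change of 0.45 and a limma adjusted p of 0.519. CCL21, the other ligand of CCR7, was 48.1 and 59.3 FPKM (-0.34, limma adjusted p = 0.533). CCR7 was highest in diabetic replicate 2 (4.57 FPKM) and non-diabetic replicate 4 (4.12 FPKM).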
